A study of Mus musculus with 23 samples.

Results

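The 10 genes described here encode the pore-forming subunits of AMPA receptors (Gria1, Gria2, Gria3 and Gria4), the type I transmembrane AMPA receptor regulatory proteins or TARPs (Cacng2, Cacng3, Cacng4 and Cacng8) and the cornichons (Cnih2 and Cnih3). They were chosen by name, as a list of receptor and auxiliary subunit genes, with earlier results of these data known. They are 10 of the 24985 gene symbols counted in each of 2 tables. All 10 passed the filter on low counts in both tables, among 15453 genes tested in whole hippocampus and 14808 in dorsal hippocampus. The study measured polyadenylated RNA in 23 mouse hippocampus libraries and asked how Acss2, which encodes an enzyme that makes acetyl-CoA from acetate, bears on gene expression around fear learning. The mice were C57BL6/J and carried a constitutive deletion of exons 3 to 7 of Acss2, made in single-cell embryos, on both copies (KO), on 1 copy (Het) or on neither (WT). Whole hippocampi were dissected freehand from KO, Het and WT mice kept in the home cage (n = 2 each, batch B0). Dorsal hippocampus came from sections of 1 mm cut in a brain matrix, from KO mice killed 30 min after 1 shock in a contextual fear conditioning task (KO fear, n = 4), KO mice in the home cage (n = 5), WT mice after the same conditioning (WT fear, n = 3) and WT mice in the home cage (n = 5). The deletion is present in every cell and from the start of development, so an effect in these libraries cannot be placed in 1 cell type or 1 time. Age and sex are not given in the sources used here. Nothing beyond the labels shows that the libraries of a group are separate animals, and p-values measure the spread between these libraries.

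AMPA receptors are glutamate-gated cation channels that carry most of the fast excitatory current at synapses of the hippocampus. Each receptor is a tetramer of pore-forming subunits. The Gria2 product, once its transcript has been edited at the codon for the glutamine of the pore loop, makes the channel poorly permeable to calcium. TARPs and cornichons bind the pore-forming subunits, carry them to the cell surface and slow their closing. In the hippocampus Cacng8 encodes the best known TARP of pyramidal neurons, and Cnih2 the main cornichon.

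The stretch around the edited codon is shown for the pore-forming genes, since the make-up of the pore by Gria2 is one of the measurements below. The capitals mark the glutamine codon in 63 bases of the GENCODE M21 transcripts, 5′ to 3′.
Gria1: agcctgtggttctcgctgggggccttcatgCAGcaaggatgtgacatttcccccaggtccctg
Gria2: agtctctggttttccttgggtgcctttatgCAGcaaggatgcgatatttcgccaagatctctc
Gria3: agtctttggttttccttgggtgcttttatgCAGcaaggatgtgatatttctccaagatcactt
Gria4: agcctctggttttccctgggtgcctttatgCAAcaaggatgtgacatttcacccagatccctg
Gria3 differed from Gria2 at 6 of the 63 bases, Gria4 at 9 and Gria1 at 14. The reference codon was CAG in Gria1, Gria2 and Gria3 and CAA in Gria4. Counts per gene do not tell edited from unedited transcripts, so the editing itself was not measured.

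The promoter is shown for Cnih2, the 1 member that passed the test as higher in KO fear than in WT fear, as RefSeq gives it on GRCm38.p6 from 250 bases before to 50 bases after the gene start. The window was chr19:5098472-5098771 on the - strand. Capitals mark a match to the GC box GGGCGG on either strand.
Cnih2: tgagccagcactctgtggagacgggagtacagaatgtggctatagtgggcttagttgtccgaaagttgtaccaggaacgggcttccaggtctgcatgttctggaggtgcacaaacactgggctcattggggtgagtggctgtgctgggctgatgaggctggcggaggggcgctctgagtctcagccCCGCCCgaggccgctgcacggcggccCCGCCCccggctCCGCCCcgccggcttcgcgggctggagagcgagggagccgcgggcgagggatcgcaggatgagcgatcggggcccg
RefSeq windows were matched for 7 of the 10 members, all but Gria1, Gria3 and Cacng4. The Cnih2 window held 3 GC boxes, the Cnih3 window held 1, and the letters were not in the other 5 windows. The GC box was found in 35.9% of 27025 mouse promoter windows of the same length. The cAMP response element TGACGTCA (in 1.88% of all windows) and the Egr site GCGTGGGCG (in 0.625%) were not in any of the 7 windows on either strand. The windows of Cacng2, Cacng3 and Cacng8 lay wholly inside the genes as GENCODE M21 bounds them. For Cacng8 the window began at 3393792 and the GENCODE gene at 3390683 on chromosome 7. The letters were therefore not sought at the GENCODE starts of these TARP genes.

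Library totals were 18814460 to 27293661 counts in whole hippocampus and 5362773 to 23412644 in dorsal hippocampus, where batch B1 was the shallowest at 5362773 to 9109104. Levels are given as CPM, the counts scaled by edgeR to a common library size after TMM normalization. Acss2 followed the labels, with 3.87 to 7.02 CPM in the 11 KO libraries, 31.2 and 34.3 in the Het libraries and 56.2 to 71.3 CPM in the 10 WT libraries. All 3 WT fear libraries were of batch B1, as were KO fear 1 and 2 and WT home cage 1 and 2. B2 held KO home cage 1 to 3 and WT home cage 3 to 5, and B3 held KO fear 3 and 4 and KO home cage 4 and 5.

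Per kilobase of annotated exon, Cnih2 and Gria1 were the most abundant members in every group and Cacng4 the least abundant. In KO fear dorsal hippocampus Cnih2 was at 374 ± 55.8 CPM per kilobase, Gria1 at 211 ± 19.3, Gria2 at 76.5 ± 13.4 and Cacng8 at 38.3 ± 9.30 (SD, n = 4). In WT fear dorsal hippocampus Cnih2 was at 266 ± 37.2 CPM per kilobase, Gria1 at 294 ± 25.5, Gria2 at 97.3 ± 5.87 and Cacng8 at 58.6 ± 8.15 (SD, n = 3). Cnih2 led in 6 of the 7 groups, and its range overlapped that of Gria1 in WT fear, where Gria1 had the higher mean, and in the whole hippocampus of KO and Het mice. Gria3 and Cnih3 came next, at 24.4 to 32.1 and 19.0 to 27.4 CPM per kilobase over the 7 group means, and their ranges overlapped in 6 of the 7 groups. Cacng3 followed at 12.3 to 25.2, then Gria4 at 9.11 to 15.7 and Cacng2 at 8.58 to 14.5. Cacng4 was at 1.99 to 2.87 CPM per kilobase. The lengths are the union of all annotated exons, which for Gria2 is 15548 bases against 6043 for Gria1, so that the order depends on which exons are used in this tissue.

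Of the 8 comparisons made, KO against WT dorsal hippocampus after fear conditioning gave the most calls among the members. Of the 10 members, 7 passed edgeR's quasi-likelihood test at an adjusted p under 0.05, 1 higher and 6 lower in KO fear. In the same comparison 22.3% of all 14808 genes passed, 10.2% higher and 12.1% lower. The median log2 difference was -0.40 over the 10 members and 0.014 over all genes. Of the 10, 3 pore-forming genes, 2 TARPs and Cnih3 were lower in KO fear, and Cnih2 was higher.

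Among the pore-forming genes, Gria1 on chromosome 11 (chr11:57011387-57330244, + strand, mm10), whose product forms most hippocampal receptors together with that of Gria2, had 1293, 1127, 1270.3 and 1412 CPM in KO fear, against 1688, 1684 and 1953 CPM in WT fear. All 4 KO fear libraries were below all 3 WT fear libraries, as was the case in one direction or the other for 21.4% of all genes. Its log2 difference was -0.51 ± 0.15 (SE, edgeR adjusted p = 0.0287), which is 1.43-fold lower. Gria3 (chrX:41400854-41678601, + strand), another pore-forming subunit gene, had 267, 210.3, 237 and 268 CPM in KO fear and 279.6, 331 and 337 CPM in WT fear. These groups did not overlap either, and the log2 difference was -0.39 ± 0.13 (edgeR adjusted p = 0.0404). Gria4 (chr9:4417896-4796234, - strand), known best from interneurons, had 55.6, 46.4, 62.3 and 65.5 CPM in KO fear and 67.6, 86.3 and 63.8 CPM in WT fear. Here the groups overlapped, because KO fear 4 was above WT fear 3, and the log2 difference was -0.42 ± 0.14 (edgeR adjusted p = 0.0401). Gria2 (chr3:80681450-80802835, - strand) did not pass, with 1415, 1311, 969.8 and 1059.9 CPM in KO fear and 1558, 1407 and 1572 CPM in WT fear. Its batch B1 libraries of KO fear lay near the WT fear libraries, all of which are of B1, and its log2 difference was -0.15 ± 0.09 (edgeR adjusted p = 0.241).

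Among the TARPs, Cacng3 (chr7:122670492-122769393, + strand), which encodes gamma-3, had 26.8, 22.8, 44.3 and 49.5 CPM in KO fear, against 40.7, 63.4 and 48.4 CPM in WT fear. The B1 libraries of KO fear were below all WT fear libraries and the B3 libraries were within their range. With batch as a term, its log2 difference was -0.95 ± 0.18 (edgeR adjusted p = 0.0155), or 1.94-fold lower. Cacng8 (chr7:3390683-3415648, + strand), which encodes gamma-8, had 73.0, 69.9, 103 and 114 CPM in KO fear, against 129, 125 and 159 CPM in WT fear. All KO fear libraries were below all WT fear libraries, and the log2 difference was -0.83 ± 0.21 (edgeR adjusted p = 0.0178). Cacng2 (chr15:77991748-78120028, - strand), which encodes stargazin, had 47.6, 40.6, 50.8 and 50.1 CPM in KO fear and 50.6, 47.1 and 52.1 CPM in WT fear. The groups overlapped, at a log2 difference of -0.11 ± 0.10 (edgeR adjusted p = 0.457). Cacng4 (chr11:107732357-107794557, - strand), which encodes gamma-4, had the lowest levels, with 9.02, 6.02, 7.74 and 10.3 CPM in KO fear and 6.40, 8.33 and 6.57 CPM in WT fear. It overlapped too, at 0.18 ± 0.21 on the log2 scale (edgeR adjusted p = 0.545).

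The cornichons passed the test in opposite directions. Cnih2 (chr19:5092868-5098521, - strand) had 414, 583, 561 and 489 CPM in KO fear, against 413, 312 and 369 CPM in WT fear. The groups stood apart by less than 1 CPM at their nearest libraries, and the log2 difference was 0.43 ± 0.13 (edgeR adjusted p = 0.0295), or 1.35-fold higher. Yif1a overlaps Cnih2 on the opposite strand and was itself 0.62 ± 0.20 higher on the log2 scale (edgeR adjusted p = 0.0356). Yif1a had 3040 counts over the 17 dorsal libraries together, and Cnih2 had 2195 to 12330 counts in each. The libraries do not mark strand, so reads from the overlap cannot be told apart, and the part of Yif1a in the Cnih2 result was not tested. Cnih3 (chr1:181352628-181460641, + strand) had 42.6, 39.9, 56.2 and 70.6 CPM in KO fear, against 49.5, 102 and 65.5 CPM in WT fear. Its groups overlapped, and the log2 difference was -0.88 ± 0.25 (edgeR adjusted p = 0.0235).

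**Figure D1:**
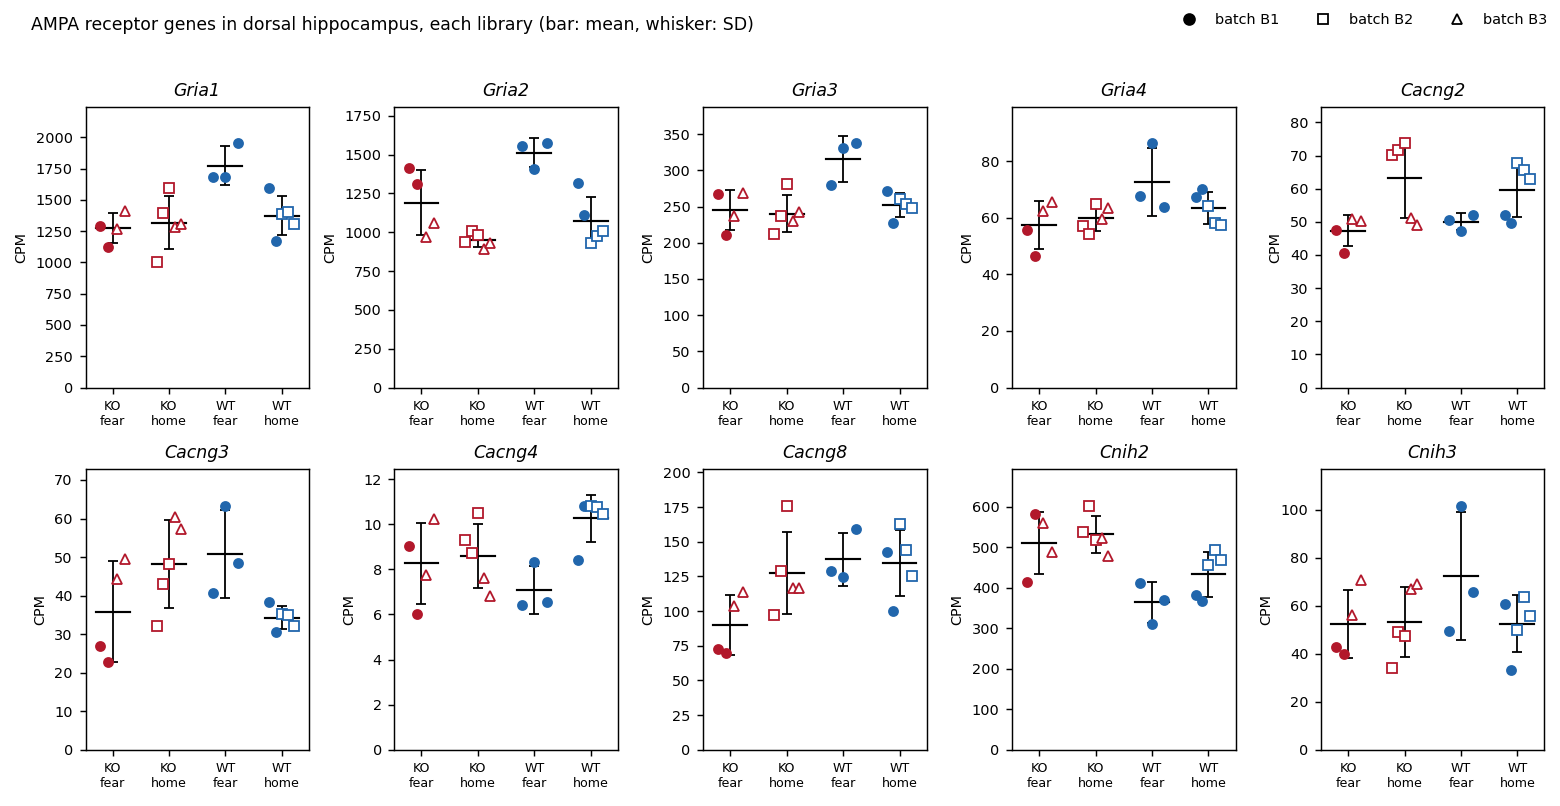
CPM of the 10 AMPA receptor genes in the 17 dorsal hippocampus libraries (red KO, blue WT; filled circles batch B1, open squares B2, open triangles B3), with a bar at each group's mean and whiskers of 1 SD. The WT fear libraries of Gria1 are at 1684 to 1953 CPM and all other groups are at 1007 to 1599 CPM.

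These differences rested on few libraries. In batch B1 alone, the only batch with both groups (2 KO fear and 3 WT fear libraries), 4 members passed, against 17.3% of all genes. These were Gria1 at -0.54 (edgeR adjusted p = 0.0367), Cacng3 at -1.03 (0.0111), Cacng8 at -0.93 (0.00805) and Cnih3 at -0.80 (0.0408) on the log2 scale. Without the KO fear libraries of B1 none of the 10 passed (1 gene in all), and Gria4 was then at -0.06, Cacng8 at -0.40 and Cacng3 at -0.63. None passed in 3 further fits, each of which left out KO fear 2, WT fear 2 or WT fear 3 and called 1 or 2 genes in all. Over these 3 fits Cacng3 was at -0.99 to -0.76, Cacng8 at -0.90 to -0.71, Gria1 at -0.55 to -0.42 and Cnih2 at 0.23 to 0.44. Without KO fear 1, 4 members and 13.9% of all genes passed. All genes split into 1510 higher and 1788 lower calls with TMM scaling and into 1873 and 1437 with upper quartile scaling, under which Gria3 and Gria4 no longer passed.

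Markers of cell types and regions differed between the same groups. Of 8 CA1 markers, 6 were lower and 1 was higher in KO fear than in WT fear, and their summed level was 729 and 777 CPM in the B1 libraries of KO fear and 1437 and 1555 CPM in its B3 libraries, against 1119 to 1673 CPM in WT fear. All 6 ependymal markers were higher in KO fear, at a sum of 27.9 to 74.7 CPM, against 7.83 to 9.41 CPM in WT fear. Of 8 oligodendrocyte markers, 7 were higher (6201 to 9885 CPM, against 3615 to 4922 CPM in WT fear), and of 8 CA2 and CA3 markers 3 were higher (504 to 757 CPM, against 291 to 543 CPM). Choroid plexus markers were higher in 4 of 5 cases, and Tmem212 of the ependymal list and Folr1 of the choroid plexus list were each at 0 in 1 dorsal library. Of 6 pan-neuronal markers 1 was higher and 2 were lower, at a sum of 5863 to 7590 CPM in KO fear and 7020 to 7510 CPM in WT fear. Dentate gyrus markers were lower for 2 of 7 genes (median -0.49 on the log2 scale). Interneuron markers were higher for 2 of 8 genes and lower for 1, and astrocyte markers were higher for 2 of 6. Among 8 thalamus markers 1 was higher, and among 7 neocortex markers 1 was lower. No marker of microglia or oligodendrocyte precursors passed. In bulk RNA fewer cells of a type and less RNA per cell cannot be told apart, and the part of these markers in the AMPA receptor result was not tested.

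**Figure D2:**
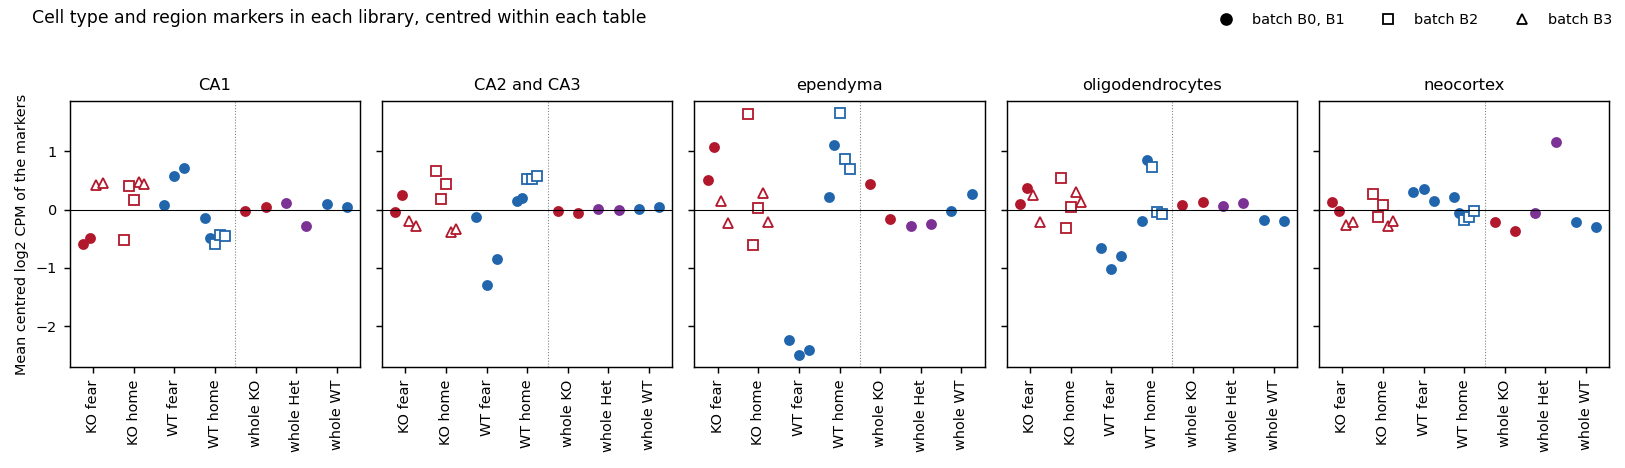
Mean log2 CPM of 5 marker lists in each library, centred within each experiment so that 0 is the mean of its libraries (red KO, purple Het, blue WT; filled circles B0 and B1, squares B2, triangles B3). WT fear is at -2.49 to -2.24 for ependyma, and the second whole hippocampus Het library is at 1.16 for neocortex.

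Fear conditioning within WT mice gave no call among the 10 members in edgeR, against 1.63% of all genes. At an unadjusted p under 0.05 there were 5 members and 20.8% of all genes. Of the members' log2 differences 8 of 10 were above 0, as were those of 7027 of 14808 genes, with a median of 0.30 over the members and -0.02 over all genes. Gria1 was at 0.39 ± 0.15 (edgeR adjusted p = 0.155), from the WT fear values given above against 1599, 1174, 1384, 1407 and 1310.2 CPM in the WT home cage. The groups stood apart for 5 members, as 16.1% of all genes did. Every WT fear library was above every WT home cage library for Gria1, Gria2, Gria3 and Cacng3, and below for Cacng4. Gria2 had 1319.8 and 1110.1 CPM in the WT home cage libraries of B1 and 933, 979 and 1005 CPM in those of B2, and its log2 difference was 0.31 ± 0.09 (edgeR adjusted p = 0.0796). Gria3 had 271, 227, 261, 253 and 248 CPM in the WT home cage, at 0.36 ± 0.13 (edgeR adjusted p = 0.126). Cacng3 had 38.3, 30.5, 35.3, 34.9 and 32.2 CPM in the WT home cage, and its log2 difference was 0.65 ± 0.18 (edgeR adjusted p = 0.0642). Cnih3 had 49.5 to 102 CPM in WT fear and 33.1 to 63.7 CPM in the WT home cage, at 0.57 ± 0.25 (edgeR adjusted p = 0.198). The other 5 members lay between -0.31 for Cacng4 and 0.29 for Cacng8. DESeq2 called Gria2 and Cacng3 in this comparison, where it called 938 genes (6.34% of those with an adjusted p). With WT home cage 1 left out, edgeR called Gria1, Gria2 and Cacng3 and 5.56% of all genes. With upper quartile scaling 85 genes were higher and 139 lower, against 129 and 112 with TMM.

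The same markers moved between these WT groups. CA1 markers were higher in WT fear for 5 of 8 genes, with a sum of 1119 to 1673 CPM in WT fear and 837 to 975 CPM in the WT home cage. Ependymal markers were lower for 4 of 6 genes, at 7.83 to 9.41 CPM in WT fear and 37.5 to 103 CPM in the WT home cage, and oligodendrocyte markers for 7 of 8. All 8 CA2 and CA3 markers were below 0 on the log2 scale (median -0.73), of which 1 passed, at a sum of 291 to 543 CPM in WT fear and 636 to 934 CPM in the WT home cage. One thalamus marker of 8 and 1 choroid plexus marker of 5 were lower, and no pan-neuronal marker passed. Their part in the levels of the AMPA receptor genes was not tested.

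In KO mice, conditioning gave no call among the members or among all 14808 genes in edgeR (0%), and 1 member and 714 genes stood at an unadjusted p under 0.05. DESeq2 called none of the members and 6 genes. That member was Cacng3, with the KO fear values above and 32.1, 42.9, 48.2, 60.4 and 57.3 CPM in the KO home cage, at a log2 difference of -0.47 ± 0.16 (edgeR adjusted p = 0.968). Its groups overlapped, where 4.3% of all genes had groups apart, and in batch B3 alone, which holds 2 libraries of each, it was at -0.34 ± 0.10 (edgeR adjusted p = 0.870). Cacng8 had 97.4, 129, 176, 117 and 117 CPM in the KO home cage and was at -0.31 ± 0.18 in KO fear. Gria1 was at -0.03 ± 0.14, with 1007, 1399, 1593, 1288 and 1308 CPM in the KO home cage, where the lowest and the highest library were both of B2. The other 7 members lay between -0.12 and 0.16.

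Cacng3 alone passed the test of the interaction, which is the fear difference in KO minus the fear difference in WT. The interaction was called for 0.479% of all genes. Cacng3 stood at -0.47 in KO and 0.65 in WT, a difference of -1.12 ± 0.20 on the log2 scale (edgeR adjusted p = 0.0406). Its sign was the same in 25 alternative fits, at -1.28 to -0.90, but it passed in 9 of them. Of 17 fits that each left out 1 library it passed in 4, those without KO home cage 1, KO home cage 3, WT fear 1 or WT home cage 1, and the highest adjusted p among the 17 was 0.186. At an unadjusted p under 0.05 there were 3 members and 21.9% of all genes. Cacng8 was at -0.60 ± 0.23 (edgeR adjusted p = 0.155), Cnih3 at -0.57 ± 0.28 (0.239), Cacng4 at 0.46 ± 0.23 (0.241) and Gria1 at -0.43 ± 0.18 (0.178), and none of these passed. The other 5 members lay between -0.30 for Gria3 and 0.17 for Cnih2, and the median was -0.29 over the 10 members and 0.03 over all genes. In the same test 3 of 8 CA1 markers were lower (median -1.46) and 3 of 6 ependymal markers were higher (median 4.10). One CA2 and CA3 marker, 1 astrocyte marker and 1 choroid plexus marker were higher too, and the part of these markers in the Cacng3 result was not tested.

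**Figure D3:**
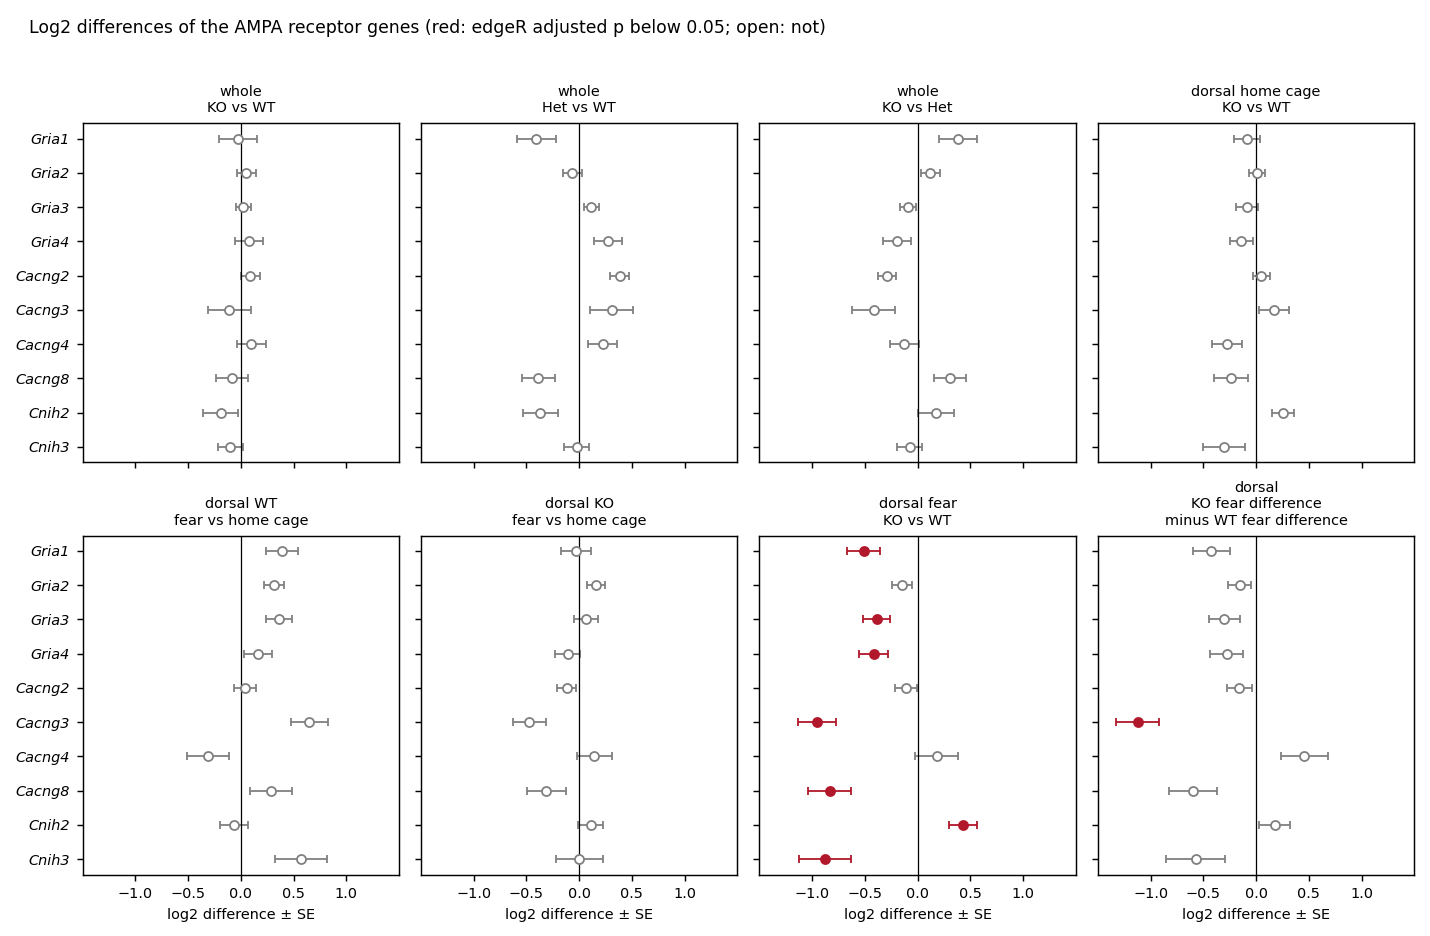
Log2 differences with standard errors for the 10 members in the 8 comparisons (red and filled where the edgeR adjusted p is under 0.05, open otherwise). Red points stand in 2 panels, 7 for KO fear against WT fear and 1, Cacng3, for the interaction.

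Without conditioning, no member passed between KO and WT dorsal hippocampus in edgeR, where 1 gene of 14808 (0.00675%) did, or in DESeq2, which called 2 genes. Without KO home cage 3 edgeR called 585 genes and still no member. With every library in, 1 member and 1674 genes were at an unadjusted p under 0.05. That member was Cnih2, with 537, 603, 519, 522 and 479 CPM in the KO home cage, against 382, 369, 455, 493.1 and 468 CPM in the WT home cage. The groups overlapped at WT home cage 4, where 3.09% of all genes had groups apart, and the log2 difference was 0.26 ± 0.11 (edgeR adjusted p = 0.440). In batch B2 alone it was 0.23 ± 0.10 (edgeR adjusted p = 0.817). Cacng8 had a lower KO mean, at 127 ± 29.6 CPM in the KO home cage and 135 ± 23.8 CPM in the WT home cage (SD, n = 5 each), and its log2 difference was -0.24 ± 0.16 (edgeR adjusted p = 0.521). The other 8 members lay between -0.31 for Cnih3 and 0.17 for Cacng3. Before any adjustment for batch, Cnih3 averaged 53.3 ± 14.7 CPM in the KO home cage and 52.6 ± 12.1 CPM in the WT home cage (SD). In batch B2 alone Cnih3 was at -0.37 ± 0.16 (edgeR adjusted p = 0.817), and its KO libraries of B3 were at 66.8 and 69.2 CPM.

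In whole hippocampus no member passed between any 2 genotypes. For KO against WT edgeR called 0.0388% of all genes, and the members lay between -0.19 ± 0.17 for Cnih2 and 0.10 ± 0.14 for Cacng4 on the log2 scale, with none at an unadjusted p under 0.05 and none called by DESeq2. Gria1 had 1208 and 1347 CPM in KO and 1351 and 1252 CPM in WT, and Gria2 had 1223 and 1293 CPM in KO and 1229.7 and 1197 CPM in WT. Both pairs overlapped. Cnih2 had 287 and 298 CPM in KO, both below the 337 and 331 CPM of WT, a separation that 42.1% of all genes showed in this comparison of 2 against 2 libraries. Dorsal hippocampus had the opposite sign for this gene in the home cage, but the dissections and library batches differ and the experiments were not tested against each other.

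Het whole hippocampus was set apart by 1 library. Neither the members nor any of the 15453 genes passed for Het against WT in edgeR (0%), with 2 members and 2145 genes at an unadjusted p under 0.05 and with 0 members and 142 genes in DESeq2. Gria1 had 1178 and 785 CPM in Het, against 1351 and 1252 CPM in WT, at -0.41 ± 0.18 on the log2 scale (edgeR adjusted p = 0.380). Cacng8 had 109.6 and 76.3 CPM in Het, against 125 and 117 CPM in WT, and Cnih2 had 311 and 207 CPM in Het, against 337 and 331 CPM in WT. In each of these the second Het library was the low one, and the log2 differences were -0.39 for Cacng8 and -0.37 for Cnih2. Cacng3 went the other way in the same library, with 53.3 and 86.8 CPM in Het, against 60.0 and 53.8 CPM in WT (0.31 on the log2 scale). Cacng2 had 75.4 and 84.5 CPM in Het, both above the 62.5 and 60.3 CPM of WT, and its log2 difference was 0.38 ± 0.09 (edgeR adjusted p = 0.239). Of all genes, 46.6% had Het and WT libraries apart in this way. The other 5 members lay between -0.07 for Gria2 and 0.27 for Gria4. With Het 2 as the sole Het library, its spread then taken from the other groups, 6 members passed against WT (Gria1, Gria4, Cacng2, Cacng3, Cacng8 and Cnih2), as did 9% of all genes. With Het 1 as the sole Het library, no member and no gene did.

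The second Het library also stood apart in its neocortex and dentate gyrus markers. The summed level of 7 neocortex markers was 203 and 404 CPM in Het, against 169 and 168 CPM in WT, and it was 176 and 175 CPM in KO. Dentate gyrus markers summed to 425 and 277 CPM in Het, against 478 and 447 CPM in WT. The part of these markers in the Het values was not tested. For KO against Het, edgeR called no member and 0.0841% of all genes, with 1 member (Cacng2) and 2038 genes at an unadjusted p under 0.05 and with 0 members and 135 genes in DESeq2. The members lay between -0.42 for Cacng3 and 0.38 for Gria1. With Het 2 as the sole Het library 4 members (Gria1, Cacng3, Cacng8 and Cnih2) and 7.66% of all genes passed, and with Het 1 as the sole one no member and 8 genes did.

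**Figure D4:**
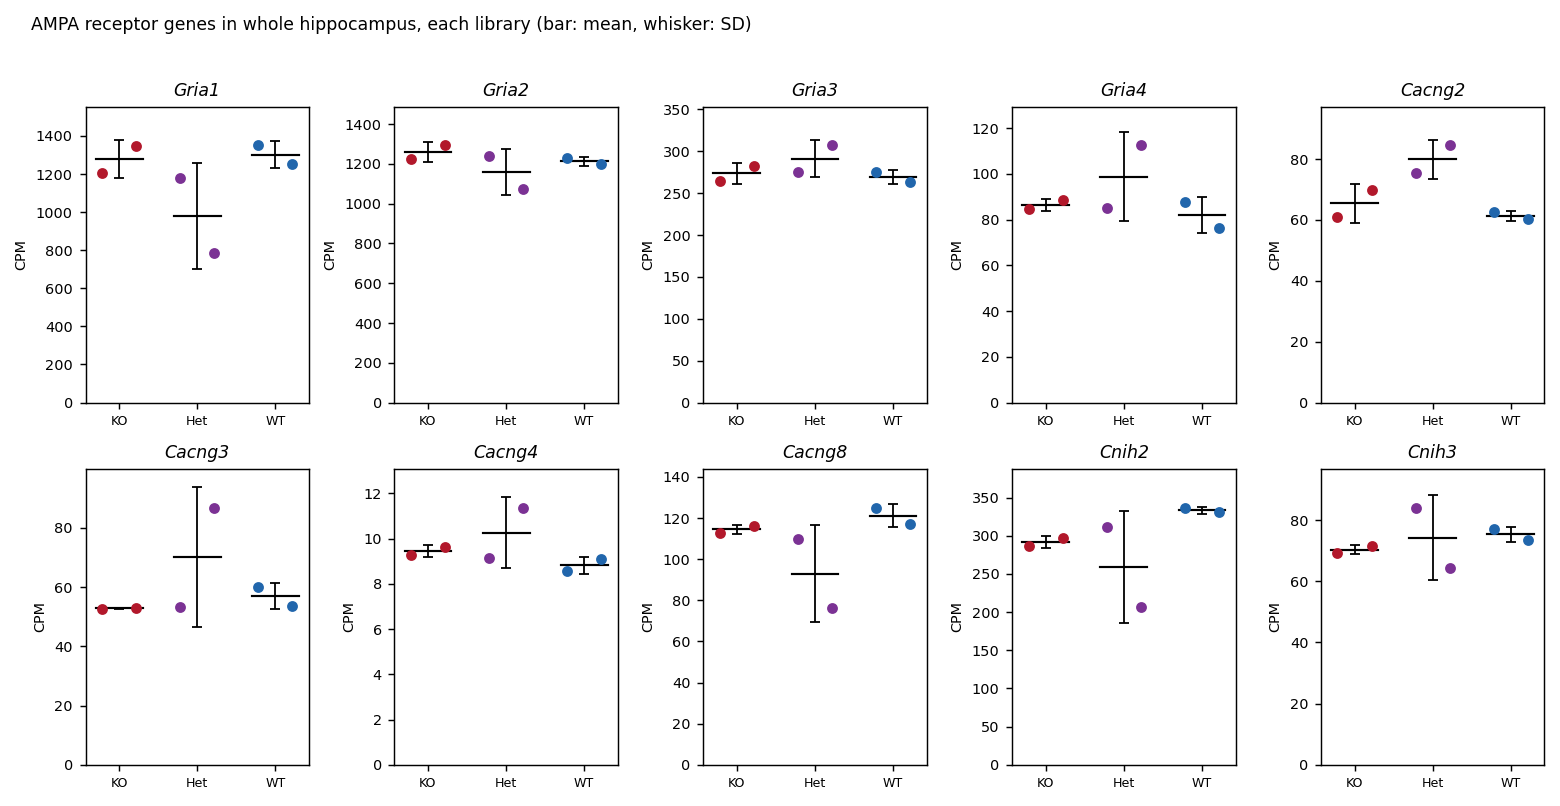
CPM of the 10 members in whole hippocampus of KO, Het and WT mice (2 libraries each, all of batch B0), with a bar at the mean and whiskers of 1 SD. The Het libraries lie far apart for Gria1, at 1178 and 785 CPM, and for Cnih2, at 311 and 207 CPM.

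The share of Gria2 among the pore-forming transcripts, after scaling each gene to its exon length, was 26.7, 28.1, 20.3 and 20.1% in KO fear, against 23.9, 21.7 and 21.6% in WT fear. The KO fear libraries of B1 were the high ones and those of B3 the low ones, and the groups overlapped. The means were 23.8 ± 4.20% in KO fear (SD, n = 4) and 22.4 ± 1.32% in WT fear (SD, n = 3), a difference of 1.41 percentage points with an exact two-sided permutation p of 0.629, where 0.0571 was the smallest p possible. In B1 alone the difference was 5.01 points, from 2 KO fear and 3 WT fear libraries. For KO fear against the KO home cage, at 23.8 ± 4.20% and 19.7 ± 2.26% (n = 4 and 5), the exact permutation p was 0.111. For WT fear against the WT home cage, at 22.4 ± 1.32% and 20.7 ± 2.18% (n = 3 and 5), it was 0.321. For KO against WT in the home cage, at 19.7 ± 2.26% and 20.7 ± 2.18% (n = 5 each), it was 0.484. After Benjamini-Hochberg adjustment over the 4 comparisons these exact permutation p-values were 0.629, 0.444, 0.629 and 0.629 in the order given. In whole hippocampus the share was 24.7 and 23.8% in KO, 25.2 and 27.9% in Het and 23.0 and 23.8% in WT. Gria1 made up 62.7 and 63.9% in KO, 61.7 and 52.4% in Het and 64.9 and 64.1% in WT. These shares change with the length used for each gene, here the union of its annotated exons. Of the raw counts Gria2 held 46.7, 48.6, 38.2 and 37.8% in KO fear and 43.4, 40.1 and 40.0% in WT fear. With the length of the first listed transcript it held 31.6, 33.4, 24.6 and 24.3% in KO fear and 28.8, 26.1 and 26.1% in WT fear. The difference between these groups was 1.66 points for raw counts and 1.45 with the transcript length.

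**Figure D5:**
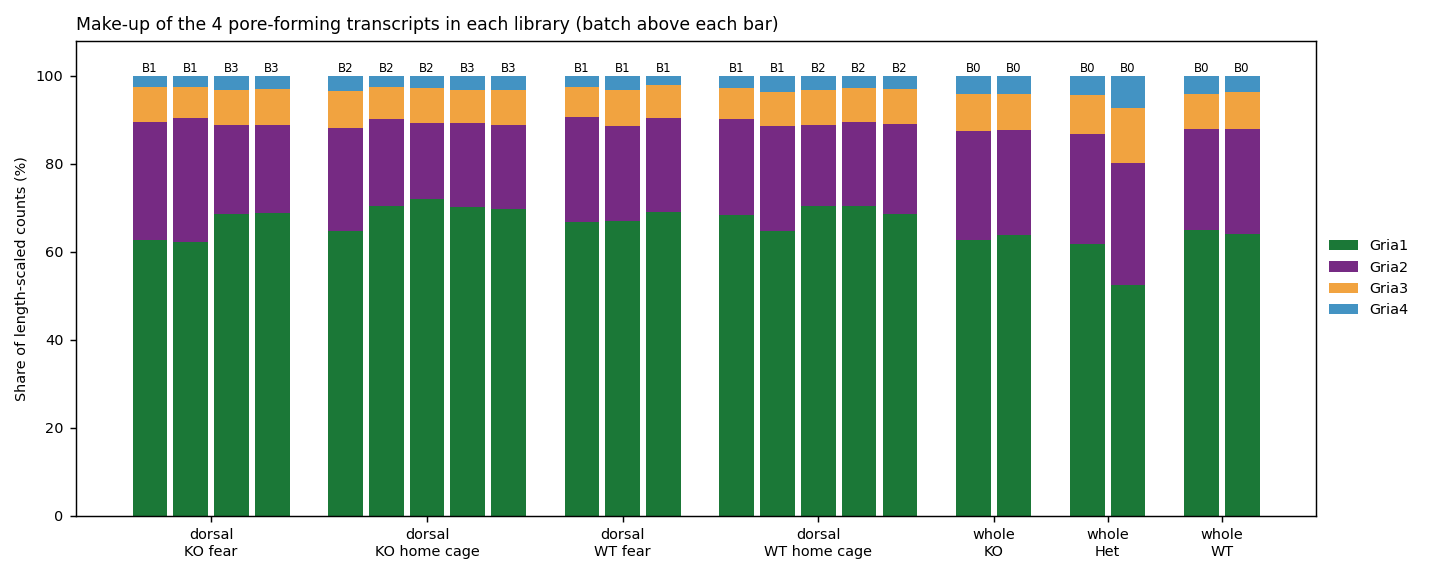
Share of Gria1, Gria2, Gria3 and Gria4 among length-scaled counts of the pore-forming genes, in percent, for each of the 23 libraries with its batch above the bar. Gria1 makes up 62.3 to 72.1% in the dorsal libraries, and 52.4% in the second whole hippocampus Het library. The shares depend on the length used for each gene, here the union of its annotated exons.

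A pair of members followed the batches. Gria2 had 1110.1 to 1572 CPM in the 7 libraries of B1 and 892 to 1059.9 CPM in the 10 others, with no overlap. Cacng2 had 63.0 to 73.7 CPM in the 6 libraries of B2 and 40.6 to 52.1 CPM in the 11 others. B1 held no KO home cage library, B2 no library after conditioning and B3 no WT library. Batch can therefore not be fully told apart from genotype and conditioning for either gene. No batch stood apart from the others in this way for the other 8 members, and 7.54% of all genes had 1 batch apart. Since WT fear is held by B1 alone, its difference from KO fear and from the WT home cage rests, in each case, on the libraries of B1 or on the batch term.

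Other genes of the glutamate receptor system were counted in lists chosen for their function, with earlier results of these data known. Beside the counts below, 22.3% of all genes passed between KO fear and WT fear, 10.2% higher and 12.1% lower. Between KO fear and WT fear, 3 of 6 NMDA receptor subunit genes were lower and none higher, namely Grin2b at -1.23 ± 0.28 (edgeR adjusted p = 0.0155), Grin2a at -0.94 ± 0.23 (0.0178) and Grin1 at -0.54 ± 0.18 (0.0422) on the log2 scale. Grin2b averaged 459 ± 93.9 CPM in KO fear (n = 4) and 1044 ± 240.3 CPM in WT fear (n = 3), and Grin2a averaged 382 ± 76.8 CPM in KO fear and 716 ± 123 CPM in WT fear (SD). Of 7 metabotropic glutamate receptor genes, 5 were lower and none higher, with Grm8 at -1.23, Grm4 at -1.11 and Grm2 at -0.97 on the log2 scale. Among 7 genes of kainate receptors and their Neto partners, Grik3 and Grik1 were lower at -1.13 and -0.60. Of the pair of delta receptor genes, Grid1 was lower at -0.86. The medians of these lists were -0.83 for NMDA, -0.70 for metabotropic, -0.15 for kainate and -0.59 for delta receptors, beside 0.014 over all genes.

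Genes for other auxiliary and assembly factors of AMPA receptors were mixed between KO fear and WT fear, with 3 of 27 higher and 7 lower and a median of -0.07. The shares of all genes were 10.2% higher and 12.1% lower. Those with the smallest p-values were Vwc2l at -2.83, Syndig1l at 1.08, Olfm1 at -0.34, Prrt2 at -0.47 and Shisa7 at -0.90 on the log2 scale. Vwc2l had few reads, at 2.24 ± 1.52 CPM in KO fear (n = 4) and 7.42 ± 8.08 CPM in WT fear (n = 3). Of 30 genes for trafficking and anchoring of AMPA receptors, 2 were higher and 8 lower, beside the same shares of all genes, with a median of -0.25. The higher ones were not among those with the smallest p-values, which are named here. Akap5, which anchors kinases and phosphatases beside the receptor, was at 59.6 ± 10.2 CPM in KO fear and 109 ± 20.3 CPM in WT fear, a log2 difference of -0.82 ± 0.20 (edgeR adjusted p = 0.0170). Dnm3 was at -0.82, the pentraxin gene Nptx1 at -0.74 and the scaffold gene Dlg3 at -0.57. In the other 7 comparisons these lists held 2 calls, both lower in WT fear than in the WT home cage, where 1.63% of all genes passed. One was Cacng5, a TARP gene of the second class, at -1.18, with 7.93 ± 0.27 CPM in WT fear (n = 3) and 23.3 ± 4.26 CPM in the WT home cage (n = 5). The other was Syndig1l at -1.24.

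Likeness of pattern was measured as the root mean square difference between centred log2 CPM profiles over the 17 dorsal libraries, for the 4 members with the smallest p-values. The nearest of 14808 genes to Cacng8 were Cyfip2, Scn8a and Slc8a2, at 0.0864 to 0.0933, beside an own SD of 0.357 for Cacng8. Gria1 (own SD 0.230) was nearest to Dab1, Wwc2 and Zcchc14 at 0.0771 to 0.0800. Cacng3 (own SD 0.402) was nearest to Fscn1, Fam189a1 and Tmem200a at 0.146 to 0.157, and Cnih3 (own SD 0.398) to Mgat5b, Usp27x and Kcnj9 at 0.144 to 0.187. Among the members themselves Gria1 and Gria3 were nearest to each other, at 0.0945, which ranked 11th among all genes for Gria1 and 57th for Gria3. For the other members the nearest member ranked lower, from place 165 for Cnih3 to place 3952 for Cnih2. All profiles share the same libraries and depths.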

How the data were processed

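The main values are raw counts of reads per gene symbol, as the authors deposited them for 6 whole hippocampus and 17 dorsal libraries. Tools named in the submitters' processing notes are HTSeq 0.9.1, SAMtools 1.1, STAR, limma and DESeq2, with the build mm10. For the gene annotation, nothing is stated in those notes. Per the labels' protocols, polyadenylated RNA was made into libraries without strand marking (NEBNext Ultra II), so reads of genes that overlap on opposite strands cannot be told apart. The deposited normalized values were not used. Among the dorsal symbols, 26 read as dates and were left unmatched.

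For each gene, edgeR 4.0.16 in R 4.3.3 gave a quasi-likelihood test on these counts, after TMM scaling and filterByExpr (count minimum 10, total minimum 15). Whole hippocampus was fitted by genotype on its 6 libraries, and dorsal hippocampus by group and batch on its 17 libraries. P-values were adjusted by Benjamini-Hochberg across every gene of the fit, and 0.05 was the threshold. Standard errors are approximate: each log2 difference was divided by the root of the F value of its test. The script was tested on simulated data. DESeq2 1.42.0 was an alternative, beside other scalings, filters, sets of libraries, no batch term, single batches and the replicate block. Shares of Gria2 were compared with exact permutation tests. Coordinates, exon lengths and transcripts are from GENCODE M21 on mm10, and promoter windows from RefSeq on GRCm38.p6.

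Every comparison gives the members singly or by their range, up to 5 genes of each other list by smallest p, and 3 genes of nearest pattern for at most 4 members. The members and lists were chosen with earlier results of these data known. Some genes and sequences that this rule names are not reported here. Yif1a was named after its values were seen, for its overlap with Cnih2. No library repeated another: within groups, chi-square per gene was 5.97 to 61.3 for any pair.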

Additional observations from a re-analysis of the deposited data

Results flagged for a closer look

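Cacng4, the TARP gene with the lowest level, had 1 library apart from the rest in the WT home cage. WT home cage 1 of batch B1 was at 8.42 CPM, and the 4 others were at 10.5 to 10.8 CPM, so that its gap to the nearest library was 0.849 of the range of the group. A check of 33 pairs of a group and a measure was made, and chance marks about 1 in 20 of them.

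Cacng3 passed the test of a difference between the genotypes in its response to conditioning, but in only 9 of 25 alternative fits. The fear difference in KO minus that in WT was -1.12 on the log2 scale in edgeR's interaction test across all genes.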

How the results depend on the processing

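Of 1720 log2 differences of members under the alternatives, 62 had another sign than in the reported fit, and none of these passed the test. They fell in 25 of the 80 reported differences, the largest of which was 0.31 in size. The calls depended on the libraries and on the terms of the model. For KO fear against WT fear, 7 members passed, and 2 did with no batch term, 4 in batch B1 alone, 0 with the replicate block and 0 without the B1 libraries of KO fear, an alternative chosen after seeing the data. The cause was not tested. Over 17 fits that each left out 1 library the count was 0 to 7. All genes called in this comparison numbered 3298, against 1544 with no batch term, 2362 in B1 alone, 2068 without KO fear 1, 1 with the replicate block, and 1 or 2 without KO fear 2, WT fear 2 or WT fear 3. For the interaction, the count of 1 became 0 with no batch term, with the replicate block and without the B1 libraries of KO fear, and was 0 to 1 with single libraries left out. The genes called numbered 71, against 130 with DESeq2's size factors (39 higher and 91 lower, beside 29 and 42) and 907 in DESeq2. Of the fits that left out 1 library, 10 called no gene, 3 called 1 to 5, and those without KO home cage 3, WT home cage 1, KO home cage 1 and WT fear 1 called 102, 664, 894 and 1007. For WT fear against the WT home cage, the count of 0 became 2 in DESeq2, 1 with no batch term, 1 with no filter and 0 to 3 with single libraries left out, and the genes called 241, against 938 in DESeq2, 712 with no batch term, 15 with the replicate block, 5 in B1 alone, 6 without WT home cage 2, 10 without WT fear 3, 13 without WT fear 2 and, without WT home cage 1, 5.56% of all genes. For KO against WT in the home cage 1 gene was called, and 585 without KO home cage 3. In whole hippocampus DESeq2 called 19 genes for KO against WT, beside 6. There, leaving out single libraries gave 0 to 6 members for Het against WT and 0 to 4 for KO against Het, and left the lone library to be taken as varying like the other groups.

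Samples share replicate numbers in the labels. The deviations of same-numbered dorsal libraries from their group means correlated at -0.31 to 0.31, and those of whole hippocampus libraries at -0.68 to 0.39. Batch was not removed from these deviations, so they do not settle whether the numbers pair the samples. A call lost under the replicate block does not by itself give the size of the difference, and why calls were lost was not tested.

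The Gria2 share difference of 4.11 points between KO fear and the KO home cage became 5.03 without KO home cage 1 (exact permutation p = 0.0286, the smallest possible there). With single libraries left out it was 2.66 to 5.35. In B3 alone it was 1.14, from 20.3 and 20.1% in KO fear and 18.9 and 19.2% in the KO home cage. The exact permutation p of 0.333 in B3 is the smallest possible with 2 libraries in each group, so that test could not pass. Between KO fear and WT fear it was 1.41, and -0.0368 (without KO fear 2) to 2.65 with single libraries left out. For KO against WT in the home cage it was -1.02, and 0.827 in B2 alone. For WT fear against the WT home cage it was 1.68, and -0.441 in B1 alone.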
